A study of Mus musculus with 28 samples.

Results

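The 9 core genes of non-homologous end joining, Xrcc5, Xrcc6, Prkdc, Dclre1c, Poll, Polm, Lig4, Xrcc4 and Nhej1, were followed in mouse ovaries 6 h after ionizing radiation (IR). The genes were picked by symbol as the core of the pathway, and all 9 were matched by gene identifier among 44674 genes of a bulk table and 31053 genes of the single-cell tables. Ovaries came from wild-type females (WT) and from females carrying the Chek2tm1b(EUCOMM)Hmgu allele (Chek2-/-), which lack the checkpoint kinase CHEK2, at 7 to 9 days of age. Females received 0.5 Gy of whole-body IR or a sham treatment (nonIR). Bulk RNA was sequenced from paired ovaries in 24 libraries, 6 for each of WT nonIR, WT IR, Chek2-/- nonIR and Chek2-/- IR. Single cells were sequenced in 4 libraries, 1 per condition, each pooled from 4 females of 7 days. The paper lists C57BL/6J mice and the mutant line separately. It does not say whether the WT females were these C57BL/6J mice or littermates of the mutants. The effect of the allele and that of the line therefore cannot be told apart.

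Non-homologous end joining is the pathway that rejoins a broken DNA double strand without a template, and it is open to cells in any phase of the cycle. The Ku ring, a dimer of the products of Xrcc5 (Ku80) and Xrcc6 (Ku70), slides onto the broken end and recruits the kinase encoded by Prkdc, which in turn activates the nuclease encoded by Dclre1c (Artemis). Gaps are filled by the polymerases encoded by Poll and Polm, and the ends are sealed by DNA ligase IV (Lig4) bound to XRCC4, with the XRCC4-like factor encoded by Nhej1 bridging the ends. The same proteins join the ends cut during V(D)J recombination in lymphocytes. Oocytes of primordial follicles are arrested in meiotic prophase and are among the most radiosensitive cells of the body, and CHEK2 passes the damage signal in them to the p53 family.

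The start regions of 3 of the genes are shown because the results turn on them: Xrcc6, the member that passed the bulk test, Xrcc5, its Ku partner, and Nhej1, whose level in oocytes differed most between libraries. Each runs 5′ to 3′ on the gene's strand from 250 bases before to 50 bases after a RefSeq transcript start of GRCm38.p6. Capitals mark GC boxes (GGGCGG, or CCGCCC when on the other strand) and CCAAT boxes (CCAAT, or ATTGG when on the other strand), and no capital run belongs to both motifs. The Xrcc6 sequence is chr15:82016119-82016418 (plus strand), inside the longer span that the gene annotation below gives, the Xrcc5 sequence chr1:72307171-72307470 (plus strand) and the Nhej1 sequence chr1:75125177-75125476 (minus strand).
Xrcc6: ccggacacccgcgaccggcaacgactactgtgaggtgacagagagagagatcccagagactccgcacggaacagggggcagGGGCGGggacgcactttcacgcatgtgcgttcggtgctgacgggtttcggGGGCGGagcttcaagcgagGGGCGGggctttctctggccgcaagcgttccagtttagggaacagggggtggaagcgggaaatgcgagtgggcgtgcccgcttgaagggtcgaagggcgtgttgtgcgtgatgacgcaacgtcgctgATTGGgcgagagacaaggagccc
Xrcc5: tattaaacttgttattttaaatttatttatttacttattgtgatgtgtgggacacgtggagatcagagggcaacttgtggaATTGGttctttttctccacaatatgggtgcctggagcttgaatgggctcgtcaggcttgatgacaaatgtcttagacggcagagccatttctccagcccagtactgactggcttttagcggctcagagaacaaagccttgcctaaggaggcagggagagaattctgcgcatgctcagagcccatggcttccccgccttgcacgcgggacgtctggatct
Nhej1: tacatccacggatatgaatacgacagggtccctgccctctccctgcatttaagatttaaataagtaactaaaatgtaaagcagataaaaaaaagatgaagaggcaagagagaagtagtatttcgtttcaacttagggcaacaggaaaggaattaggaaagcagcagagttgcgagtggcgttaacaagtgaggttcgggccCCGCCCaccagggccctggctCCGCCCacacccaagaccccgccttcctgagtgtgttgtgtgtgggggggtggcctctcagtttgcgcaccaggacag
Xrcc6 held 3 GC boxes and 1 CCAAT box, Nhej1 held 2 GC boxes, and Xrcc5 held 1 CCAAT box and no GC box. A GC box stood in 35.7% and a CCAAT box in 37.4% of 32851 promoters of the same length. The Xrcc6 window held 30 CpG and 64.3% G or C, against 9 CpG and 48.0% for Xrcc5 and 10 CpG and 50.7% for Nhej1; the median over all promoters was 7 CpG and 52.7%. The p53 half-site, searched by its consensus on both strands, matched none of the promoters of the 7 members with an entry and 8.36% of all promoters. These matches describe letters in the windows.

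In the reference annotation of GRCm38, Xrcc5 (ENSMUSG00000026187) spans chr1:72307421-72394952 and Xrcc6 (ENSMUSG00000022471) chr15:81987835-82040085. Prkdc (ENSMUSG00000022672) spans chr16:15637866-15842235, Dclre1c (ENSMUSG00000026648) chr2:3424131-3464130, Poll (ENSMUSG00000025218) chr19:45552275-45560531 and Polm (ENSMUSG00000020474) chr11:5827860-5838016. Lig4 (ENSMUSG00000049717) spans chr8:9969049-9977686, Xrcc4 (ENSMUSG00000021615) chr13:89774027-90089608 and Nhej1 (ENSMUSG00000026162) chr1:74967139-75125200. Exons of 3 members overlap a gene on the opposite strand, Xrcc6 with Desi1 by 344 bases, Dclre1c with Suv39h2 by 357 bases and Xrcc4 with Tmem167 by 112 bases. No source used here says whether the bulk counting used strand, so in these stretches the genes of each pair cannot be told apart.

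Bulk libraries held 17825167 to 32605747 counts. Any pair of replicates differed beyond sampling noise, the chi-square over its degrees of freedom being 6.25 to 60.5. Chek2 fell in the mutant, by 2.58 on the log2 scale without and by 2.41 with IR, in 6 of 6 libraries each. Cdkn1a, the cell cycle inhibitor that p53 induces, rose by 1.67 on the log2 scale in WT ovaries (edgeR quasi-likelihood test, adjusted p = 2.48e-09). All 6 of 6 p53 target genes checked (Cdkn1a, Mdm2, Ccng1, Bbc3, Eda2r and Phlda3) passed the test there. These genes were chosen with earlier results of these data known, so their passing is a check of the libraries and no independent result. By their cell markers 5 libraries stood apart, and the fit without all 5, chosen after seeing the data, is among the alternatives given below. Replicate 6 of Chek2-/- nonIR and of Chek2-/- IR had 848 and 947 CPM (the counts-per-million value after TMM scaling) over 6 oocyte markers, against 1538 to 1750 CPM in the other Chek2-/- libraries. Replicate 3 of WT IR and replicate 2 of Chek2-/- IR had 1181 and 824 CPM over 5 neutrophil markers, against at most 9.55 CPM in the other libraries. Erythroid markers were at 10428 CPM in Chek2-/- nonIR replicate 5 and at 7038 CPM in Chek2-/- IR replicate 2, against 198 to 926 CPM elsewhere. Surface epithelial markers ran from 177 to 717 CPM over all libraries, highest in WT IR replicate 4, which was not among the 5. Markers of T and B lymphocytes, the cells of V(D)J recombination, summed to 3.61 to 10.4 CPM.

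All 9 members were expressed in the whole ovary at moderate levels. On the per-length scale (CPM per kb of exon), the Ku subunits led, with a mean over 24 libraries of 21.5 for Xrcc5 and 17.7 for Xrcc6. Next came Xrcc4 at 8.08, Poll at 6.20, Nhej1 at 5.59 and Polm at 5.33 CPM per kb. Lig4 at 3.69, Prkdc at 3.23 and Dclre1c at 1.59 CPM per kb were lowest. Library ranges of neighbours in this order overlapped except between Xrcc6 and Xrcc4, between Polm and Lig4, and between Prkdc and Dclre1c, so the order within the middle group is not settled. The ranges do not cover the error of the exon length. Without division by length Prkdc had a mean of 40.9 CPM, above Polm at 15.6 and Poll at 14.4 CPM, so the order holds for the per-length scale only. Within a member the highest library was at most 1.92 times the lowest (Nhej1), and the plot of CPM by library shows how small the differences between groups were beside this spread.

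**Figure D1:**
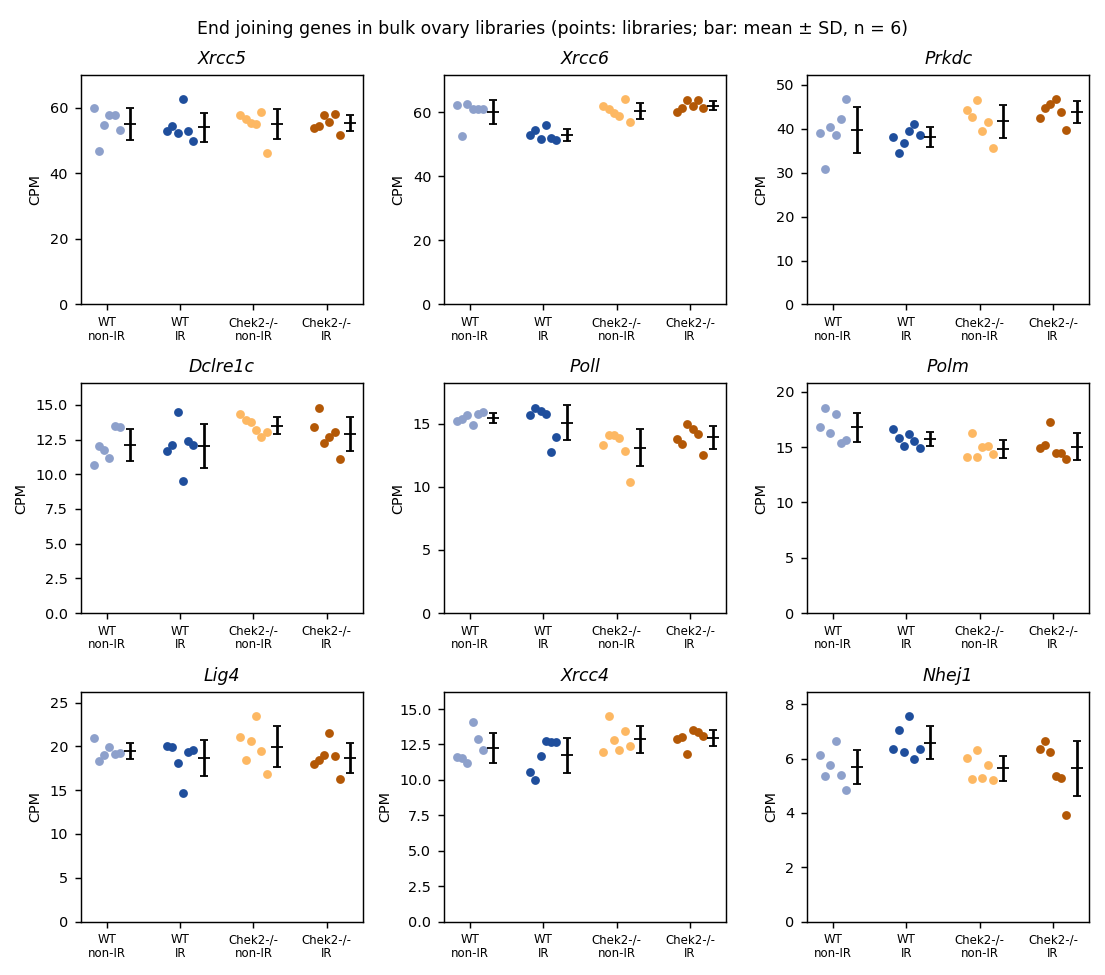
CPM (axis from 0) of the 9 genes in each of the 24 bulk libraries, by group, with mean ± SD of 6 libraries. Xrcc6 in WT IR sits between 51.2 and 56.1 CPM, below all 6 Chek2-/- IR libraries, and no other gene shows a comparable separation after IR.

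Does the end joining machinery change in transcript level after IR in WT ovaries? Xrcc6 fell, by 0.18 on the log2 scale (SE 0.04). On the linear scale it fell by 11.7%. The other 8 members did not pass the test, with log2 fold changes of -0.10 to 0.21. Xrcc6 was at 52.6 CPM in the lowest, 61.0 CPM in the median and 62.6 CPM in the highest WT nonIR library, and at 51.2, 52.5 and 56.1 CPM in WT IR. The groups overlapped, and 3 of the 6 irradiated libraries lay below all non-irradiated ones. The edgeR quasi-likelihood test gave an adjusted p of 0.0121 over 26790 genes. One of 9 members was called, where 2.41% of all genes were. At an unadjusted p under 0.05 the count was 1 of 9 beside 11.4% of all genes, and the groups did not overlap for 0 of 9 members beside 2.56%. The call on Xrcc6 rests on a small margin. It was lost when only the WT libraries were fitted (log2 fold change -0.16, adjusted p = 0.0839) and without WT nonIR replicate 3 (0.0538), 4 (0.0567) or 5 (0.0538) or WT IR replicate 5 (0.0579) or 6 (0.0651), while the fold change stayed between -0.21 and -0.16 over 34 alternatives. Without the 5 libraries that stood apart it was -0.17, with an adjusted p of 0.0392. The median change of the 9 members was -0.06, and that of all genes -0.0041.

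Markers of primordial oocytes moved in the same comparison. They were Sycp1, Sycp3, Sohlh1 and Figla, genes of meiosis and of oocyte transcription. Their sum was 116 to 172 CPM in WT nonIR and 77.7 to 122 CPM in WT IR. The median log2 fold change was -0.45, and 1 of 4 passed the test. Markers of quiescent pregranulosa cells went the other way, with sums of 452 to 527 CPM in WT nonIR and 512 to 607 CPM in WT IR, a median log2 fold change of 0.14 and 1 of 6 passed (higher). In whole ovaries, fewer cells of a type and less RNA per cell cannot be told apart, and the part of these markers in the Xrcc6 difference was not tested.

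Xrcc5, the Ku partner, gave a mean of 55.1 ± 4.79 CPM (SD, n = 6) in WT nonIR and 54.1 ± 4.42 CPM in WT IR, a log2 fold change of -0.03 with a 95% interval of -0.15 to 0.10. The Ku subunits therefore had unequal estimates in WT ovaries, though the difference between the genes was not tested. Prkdc, the DNA-dependent kinase, was at 39.7 ± 5.21 CPM before and 38.1 ± 2.24 CPM after IR (log2 fold change -0.06). Dclre1c, the nuclease that opens hairpins, was at 12.1 ± 1.15 and 12.0 ± 1.59 CPM (log2 fold change -0.0052). Poll stood at 15.5 ± 0.391 and 15.1 ± 1.41 CPM, and Polm at 16.8 ± 1.28 and 15.7 ± 0.640 CPM. For Polm the interval of the log2 fold change ran from -0.22 to 0.02. The ligase gene Lig4 was at 19.4 ± 0.922 and 18.6 ± 2.05 CPM and its partner Xrcc4 at 12.2 ± 1.08 and 11.7 ± 1.21 CPM, both with a log2 fold change of -0.06. None of these 7 genes differed beyond the spread between replicates.

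Nhej1 had the highest estimate of the 9. It was at 4.85, 5.57 and 6.64 CPM in the lowest, median and highest WT nonIR library and at 5.97, 6.35 and 7.56 CPM in WT IR, and 2 irradiated libraries lay above all non-irradiated ones. Its log2 fold change of 0.21 (SE 0.11) gave an unadjusted p of 0.0693 and an adjusted p of 0.5 by the edgeR test, with adjusted p of 0.295 to 0.647 over the alternatives. The change did not pass in the whole ovary.

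In Chek2-/- ovaries no member passed the test after IR. Log2 fold changes ran from -0.10 (Lig4) to 0.09 (Poll), the smallest unadjusted p by edgeR was 0.237, and 0 of 9 members were called beside 0.0112% of all genes, which is 3 genes in all. Of the 6 p53 target genes checked, 2 passed in the mutant, both higher. All 6 had positive estimates there, with a median log2 fold change of 0.40. At an unadjusted p under 0.05 the count was 0 of 9 beside 4.4% of genes, the groups did not overlap for 0 of 9 beside 0.149%, and DESeq2 and limma-voom also called 0 of 9. Xrcc6 was at 56.9, 60.4 and 64.1 CPM in the lowest, median and highest nonIR library and at 60.1, 61.6 and 63.8 CPM after IR, with a log2 fold change of 0.04 (95% interval -0.04 to 0.12). Nhej1 was at 5.64 ± 0.461 and 5.64 ± 1.00 CPM, with a log2 fold change whose interval ran from -0.22 to 0.21.

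The difference in response between the genotypes was tested by the interaction, the Chek2-/- response minus the WT response. It holds any effect of the line together with that of the allele. No member passed, 0 of 9 beside 1.03% of all genes, and 1 of 9 had an unadjusted p under 0.05 beside 9.14%. That gene was Xrcc6, with a difference of 0.22 (SE 0.06) and an adjusted p of 0.0735. DESeq2 put it past the threshold (0.21, adjusted p = 0.0181), as did edgeR without WT nonIR replicate 2 (0.25, adjusted p = 0.00865), and adjusted p ranged up to 0.266 over the alternatives. Nhej1 had the opposite sign, -0.21 with a 95% interval of -0.51 to 0.09. The other 7 differences lay between -0.06 and 0.13. The p53 target genes checked passed the same interaction test, 6 of 6, all with a smaller rise in the mutant. From these same libraries the paper reports Cdkn1a, Mdm2, Ccng1, Bbc3 and Eda2r as induced in a way that depends on CHEK2. Their passing is therefore a check of the libraries and no independent contrast to the members.

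Between genotypes without IR, the gap-filling polymerases had the largest differences. Poll was at 14.9, 15.5 and 16.0 CPM in the lowest, median and highest WT nonIR library and at 10.4, 13.6 and 14.2 CPM in Chek2-/- nonIR. Its groups did not overlap, but the log2 fold change of -0.24 (SE 0.07) had an adjusted p of 0.0549 in edgeR. Polm was at 15.3, 16.5 and 18.6 CPM and at 14.1, 14.7 and 16.3 CPM, and its log2 fold change of -0.18 (SE 0.06) had an adjusted p of 0.0851. So 0 of 9 members were called beside 5.34% of all genes, 2 of 9 had an unadjusted p under 0.05 beside 21.6%, and 1 of 9 had groups that did not overlap beside 3.22%. DESeq2 called both polymerase genes, Poll at 0.0168 and Polm at 0.0389. In all, 4 of 34 alternatives put Poll past the threshold, the fit without WT IR replicate 5 among them (adjusted p = 0.0453 in edgeR), and 1 of 34 did so for Polm. Without the 5 libraries that stood apart, among them Chek2-/- nonIR replicates 5 and 6, Poll was at -0.15 with an adjusted p of 0.143 in edgeR. The lowest Poll value came from the Chek2-/- nonIR replicate with few oocyte markers. Summed cell markers also moved between these groups. Those of growing oocytes were at 3688 to 5125 CPM in WT nonIR and 1748 to 4256 CPM in Chek2-/- nonIR (1 of 6 passed, lower), and those of granulosa cells at 1152 to 1532 and 655 to 1179 CPM (0 of 6 passed). Those of fibroblasts were at 4233 to 5512 and 3330 to 4646 CPM (2 of 6 passed, both lower), and those of perivascular smooth muscle at 174 to 290 and 116 to 240 CPM (0 of 5 passed). Marker genes of other cells passed as well. Those that were higher were 2 of 6 of quiescent pregranulosa cells, 1 of 5 of theca and steroidogenic cells and 1 of 6 of oviduct and uterine epithelium. Of pericyte markers 2 of 6 passed, both lower. The part of all these markers in the Poll and Polm differences was not tested. Dclre1c was the member with the highest estimate, 0.16 with a 95% interval of -0.0075 to 0.32.

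After IR, Xrcc6 was higher in Chek2-/- than in WT ovaries in 6 of 6 libraries. Its values were 51.2, 52.5 and 56.1 CPM in the lowest, median and highest WT IR library and 60.1, 61.6 and 63.8 CPM in Chek2-/- IR. The log2 fold change was 0.23 (SE 0.04), an excess of 17.0%, with an adjusted p of 0.000599 by edgeR. It remained past the threshold in 34 of 34 alternatives, with adjusted p of 4.53e-06 to 0.0058. One of 9 members was called beside 9.84% of all genes, 2 of 9 had an unadjusted p under 0.05 beside 23.6%, and 1 of 9 did not overlap beside 5.3%. Prkdc was the second, at 34.6, 38.4 and 41.0 CPM against 39.8, 44.3 and 46.8 CPM, with 5 of 6 mutant libraries above all WT ones. Its log2 fold change of 0.20 (SE 0.07) missed the threshold at an adjusted p of 0.085, and passed it without WT nonIR replicate 2 (0.0342). Poll and Polm had log2 fold changes of -0.12 and -0.06 here, so their lower values without IR did not pass in the irradiated libraries either. In the same comparison 4 of 4 primordial oocyte markers were higher in the mutant, with a median log2 fold change of 0.80 and sums of 137 to 186 CPM. Several other marker sums were lower in Chek2-/- IR than in WT IR. Those of quiescent pregranulosa cells were at 512 to 607 CPM in WT IR and 429 to 522 CPM in Chek2-/- IR (2 of 6 passed, both lower), and those of perivascular smooth muscle at 142 to 373 and 95.5 to 169 CPM (2 of 5 passed, both lower). Those of fibroblasts were at 4233 to 5184 and 3289 to 4486 CPM and those of growing oocytes at 3757 to 4664 and 1954 to 4030 CPM (1 of 6 passed in each, lower). Of 6 general oocyte markers 3 passed, all higher, with a median log2 fold change of 0.29. Their sums were at 1640 to 1963 CPM in WT IR and 947 to 1750 CPM in Chek2-/- IR. Of T and B lymphocyte markers 1 of 5 passed, higher. Of neutrophil markers 2 of 5 and of pericyte markers 1 of 6 passed, all lower. The part of all these markers in the Xrcc6 difference was not tested.

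**Figure D2:**
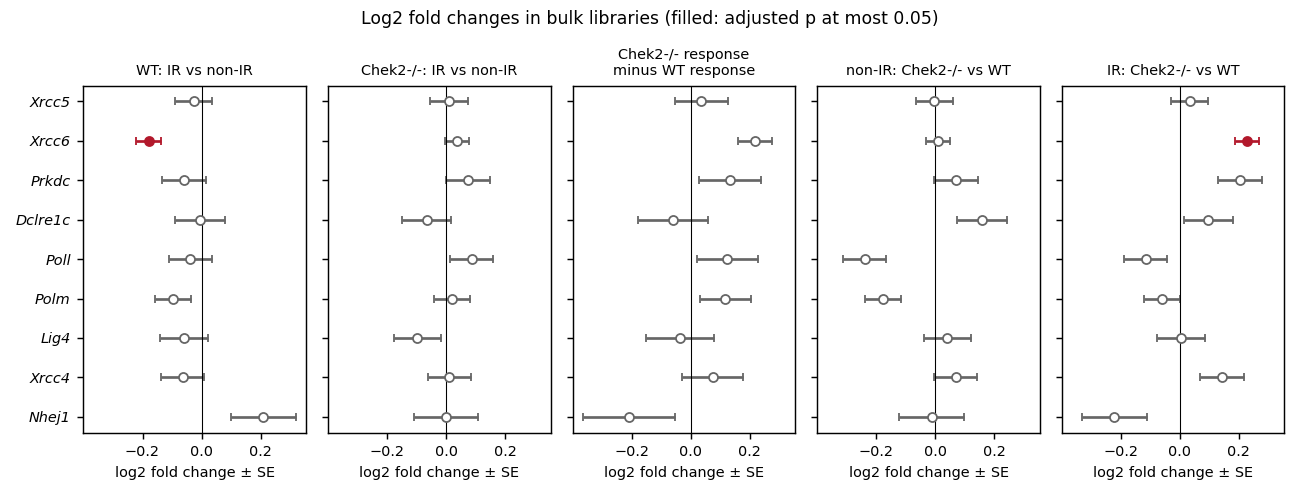
Log2 fold change ± SE of each gene in the 5 bulk comparisons, filled where the adjusted p by edgeR was at most 0.05. Only Xrcc6 is filled, at -0.18 in WT ovaries after IR and at 0.23 between genotypes after IR.

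Genes of the surrounding pathways were looked up in the same comparisons. In 4 lists of such genes, 1 of 49 was called in WT ovaries after IR beside 2.41% of all genes, 1 of 49 between genotypes without IR beside 5.34%, and 6 of 49 with IR beside 9.84%. Nothing is read from these counts about the lists, and single genes are given as descriptions. Of 12 accessory and end-processing genes of the pathway, Aplf, a scaffold that binds Ku and XRCC4, fell in WT ovaries after IR by 0.35 on the log2 scale (adjusted p = 0.0368 by edgeR), and no other gene of this list passed there. This call was lost in 16 of 34 alternatives, with adjusted p of 0.00806 to 0.128, among them the fits without WT nonIR replicate 4, 5 or 6, without WT IR replicate 1, 2, 3, 4 or 6, without Chek2-/- nonIR replicate 4 and without Chek2-/- IR replicate 2, 4 or 6. After IR, Aplf was higher in Chek2-/- than in WT ovaries by 0.54 (adjusted p = 0.000245), and so was Tdp2, which clears topoisomerase II from DNA ends, by 0.23 (adjusted p = 0.0124). The primordial oocyte markers moved the same way as Aplf in both comparisons, with the medians given above. In single cells Aplf was at 62.6 ± 3.57 UMIs-per-million in oocyte-like cells (mean ± SD of 4 libraries) and at 12.2 ± 0.371 in the next class, and the part of these cells in its bulk differences was not tested. Of 11 break-marking genes tested, Atm, the kinase upstream of CHEK2, was higher by 0.25 (adjusted p = 0.00836) and Trp53bp1, which protects ends from resection, was lower, with a log2 fold change of -0.15 (adjusted p = 0.00966). Of 11 genes of alternative end joining, Polq, the polymerase of that route, was higher by 0.31 (adjusted p = 0.00166). Rad51d was the 1 gene called among 15 of homologous recombination, at -0.27 without IR (adjusted p = 0.0118) and at -0.21 with IR (adjusted p = 0.0228). Without the 5 libraries that stood apart, Tdp2 (adjusted p = 0.0567), Atm (0.0571) and Trp53bp1 (0.0616) missed the threshold, while the genotype calls on Aplf, Polq and Rad51d passed in 34 of 34 alternatives. Of the V(D)J recombinase genes, Rag1 passed between genotypes after IR at 2.31 (SE 0.72, adjusted p = 0.0418 by edgeR) and Rag2 did not pass. The call rests on Chek2-/- IR replicate 2, where Rag1 was at 7.37 CPM against 0.223 to 0.682 CPM in the other 5 libraries of the group and 0.0483 to 0.569 CPM in WT IR, and without that library the difference was 0.47 (adjusted p = 0.619). It passed in 20 of 33 alternatives and also failed without WT nonIR replicate 4, without WT IR replicate 1, 2, 3, 4 or 6 and without Chek2-/- nonIR replicate 4 (adjusted p of 0.0502 to 0.0951). Dntt, the terminal transferase gene of lymphocyte precursors, was at 2.73 CPM in the same library, which also held the highest T and B lymphocyte marker sum of its group, 10.4 CPM against 4.22 to 5.24 CPM, beside the neutrophil and erythroid markers given above. Mcm4, the helicase subunit gene that shares a start region with Prkdc, had log2 fold changes of -0.05 to 0.01 in the 5 comparisons.

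In single cells the members could be assigned to cell classes. After filters and removal of called doublets, 36524 cells in 11 classes were used, with 8697 to 9779 cells per library, and 15 to 31 cell barcodes were shared between any pair of libraries among the cells used. Classes were named from marker genes, and the naming limits were set after clusters had been seen. Oocyte-like cells numbered 194, 161, 75 and 138 in the order WT nonIR, WT IR, Chek2-/- nonIR and Chek2-/- IR, and they carried 6 of 6 oocyte markers. Levels are in UPM, the UMIs-per-million value of a gene among all UMIs (distinct captured transcripts) of the class and library, and with 1 library per condition no test was made. The free RNA of the oocyte genes Dppa3 and Zp3 in the other classes came to 0.234% to 0.608% of their oocyte level.

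The core genes were most abundant in oocyte-like cells. Xrcc5 was at 183 ± 5.65 UPM there (mean ± SD of 4 libraries), against 39.3 ± 1.39 in granulosa-like cells, the next class. Xrcc6 was at 94.6 ± 10.0, against 44.5 ± 2.17 in dividing granulosa-like cells. Xrcc4 was at 67.2 ± 9.31, against 21.3 ± 1.71 in endothelial-like cells. Of the 9 genes, 7 had their highest level in oocyte-like cells, with the lowest oocyte library above the highest library of the next class. The others of these 7 were at lower levels, with Nhej1 at 35.5 ± 15.8, Prkdc at 22.9 ± 2.34, Poll at 18.8 ± 2.22 and Lig4 at 13.9 ± 1.54 UPM, with next classes at 17.3, 12.9, 8.10 and 7.26.

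The nuclease gene Dclre1c followed another pattern. It was at 33.6, 26.2, 49.9 and 21.7 UPM in macrophage-like cells in the 4 libraries, and at 6.62, 5.15, 7.83 and 4.89 UPM in oocyte-like cells, the next class. The macrophage-like level rested on 94 UMIs in 294 cells, and its ranges did not overlap those of oocyte-like cells. All 6 of 6 macrophage markers marked the class, but its leading genes also included S100a8 and S100a9, known from neutrophils, and Tpsb2 and Cma1, known from mast cells. Which of these cells carried Dclre1c was not tested. Polm was at 7.18 ± 0.573 in oocyte-like and 7.73 ± 5.38 in macrophage-like cells, which overlapped. Macrophage-like cells were a small class, and their levels of the other members rested on 8 to 59 UMIs.

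**Figure D3:**
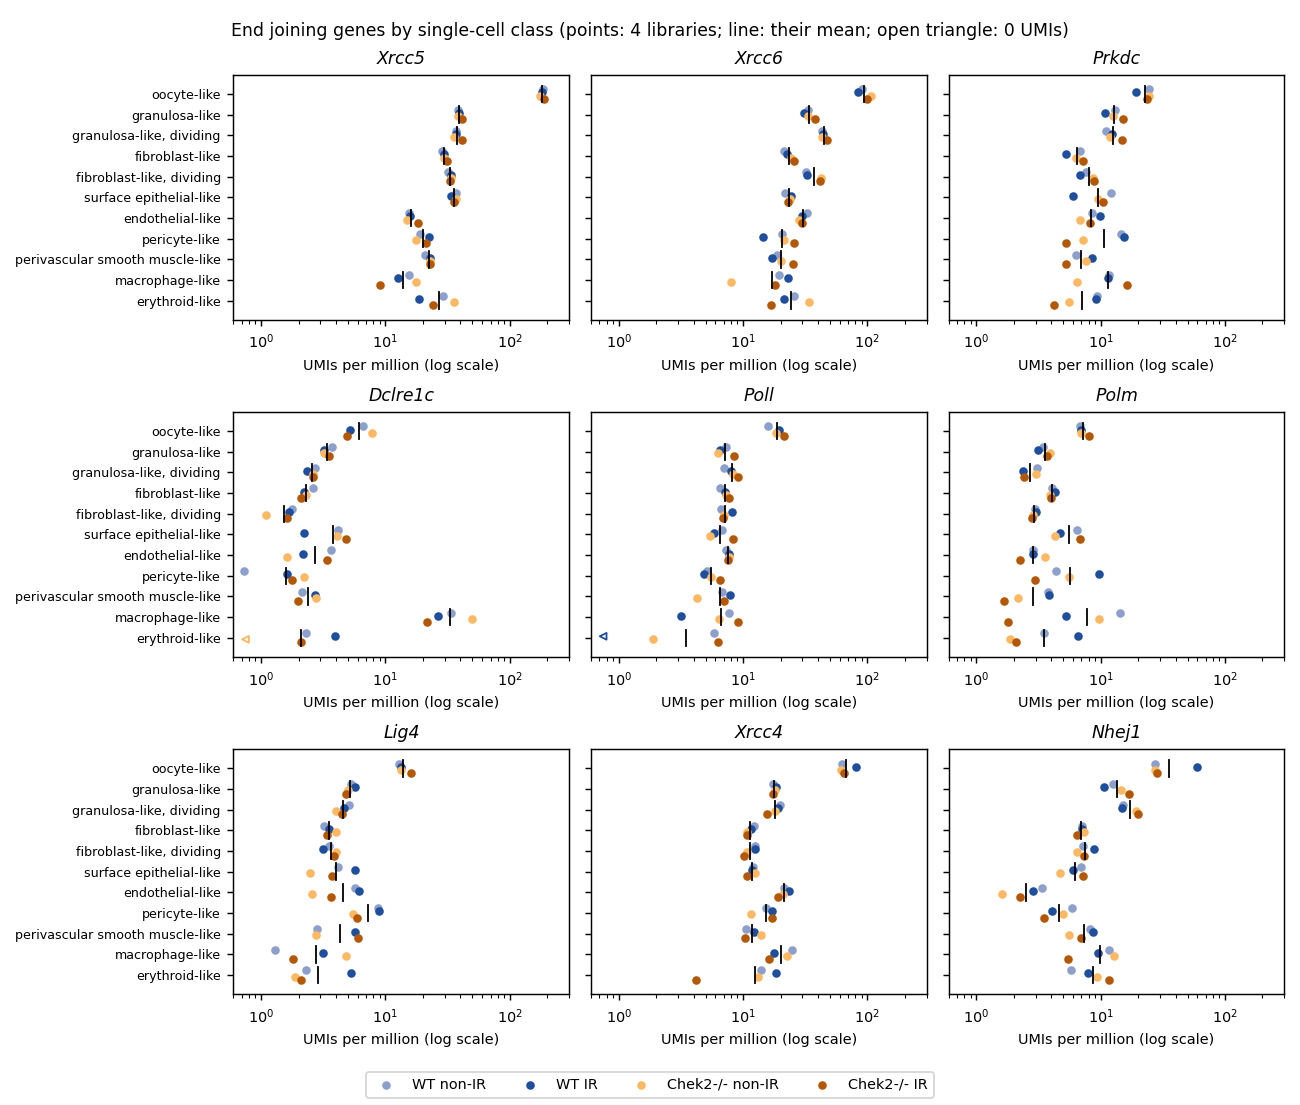
Levels in UPM (log axis) of the 9 genes in 11 single-cell classes, with 1 point per library and a line at the mean of the 4, and open triangles where a library had 0 UMIs. Oocyte-like cells lie to the right of every other class for 7 genes, and macrophage-like cells do so for Dclre1c.

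Against the sum of all other named cells, 9 of 9 members were at least 2-fold higher in oocyte-like cells in the mean of the 4 libraries. The ratios ran from 2.01-fold for Polm, which lay at the limit, to 5.36-fold for Xrcc5. At that limit 26.8% of 17298 genes were higher. The median log2 ratio was 1.57 for the members and -0.14 for all genes. It was 0.85 for homologous recombination, 0.55 for break marking and 0.42 for alternative end joining, and -0.10 for the accessory genes of the pathway. In macrophage-like cells 1 of 9 members was at least 2-fold higher beside 22.5% of genes, and this was Dclre1c at 10.6-fold. Clusters were made from these same cells, with the members and listed genes left out of the clustering. These ratios describe the classes and test nothing.

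Depth differs between classes, and the share of cells with a UMI follows it. Xrcc5 was seen in 83.5% of oocyte-like cells, with a median of 111018 UMIs per cell, and in 51.8% of granulosa-like cells, with a median of 19480. When each cell was thinned to 3000 UMIs the shares were 39.3% (Clopper-Pearson 95% interval 35.0% to 43.8%) of 491 and 11.1% (10.5% to 11.7%) of 10721 cells, with 77 and 118 shallower cells left out. No class is known to lack Ku. The lowest thinned share was 3.90% (1.44% to 8.29%) of 154 erythroid-like cells, with a median of 18584 UMIs. Its limits overlapped those of macrophage-like cells at 4.92% (2.65% to 8.27%), so the order of these classes is not settled. The erythroid-like cluster also met 5 of 6 granulosa and 5 of 6 fibroblast markers. Thinned shares of Xrcc6 were 21.4% in oocyte-like and 9.22% in granulosa-like cells. For the 7 genes with their highest level in oocyte-like cells the thinned share was also highest there, as it was for Dclre1c in macrophage-like cells. The order turned for Polm, whose thinned share was 1.02% (0.331% to 2.36%) in oocyte-like cells, against 1.27% in fibroblast-like and 2.15% in pericyte-like cells, so no order is read from it.

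Mcm4, though it shares a start region with Prkdc, did not share its pattern. It was highest in dividing fibroblast-like cells at 78.8 ± 3.57 UPM and stood eighth of 11 classes in oocyte-like cells at 32.1 ± 3.56. Across the 11 classes, the genes most like each member by Pearson's r of levels on the log2 scale after adding 1 UPM, among 13231 genes, were Sssca1 (0.994) and Mipep (0.988) for Xrcc5, Snu13 (0.978) and Sin3a (0.977) for Xrcc6, and Gga3 (0.993) and Clptm1 (0.989) for Xrcc4. For Nhej1 they were Entpd6 (0.964) and Setdb1 (0.955), for Prkdc Sod2 (0.982) and Psmd10 (0.961), and for Poll Ddx6 (0.968) and Ints6 (0.958). For Lig4 they were 4921524J17Rik (0.970) and Btbd10 (0.966), and for Polm Ganc (0.934) and Phldb3 (0.912). Dclre1c was most like C1qb (0.969), a complement gene of macrophages, and Ptpn6 (0.968), a phosphatase of blood cells. The classes share 4 libraries, and 1 class often sets the correlation, so these values describe the likeness only.

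Cell division was not accompanied by a general rise of the members. Between dividing and other granulosa-like cells the median log2 ratio of the 9 was -0.03, and 0 of 9 were at least 2-fold higher beside 5.84% of genes. Between dividing and other fibroblast-like cells the median was 0.04, and 0 of 9 were at least 2-fold higher beside 7.05% of genes. For homologous recombination, which uses a sister chromatid, 13 of 15 and 12 of 15 genes were at least 2-fold higher, with medians of 1.41 and 1.71. Xrcc6 was the member with the largest ratio, 1.31-fold in granulosa-like and 1.58-fold in fibroblast-like cells, higher in 4 of 4 libraries each time. Dclre1c and Polm were lower in the dividing cells of both kinds in 4 of 4 libraries, Dclre1c at 0.761-fold and 0.670-fold and Polm at 0.772-fold and 0.721-fold.

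Oocyte-like cells were not uniform. They were divided into 9 sub-clusters, which were grouped after they had been seen by depth and by Gdf9, a growth factor that oocytes make as follicles begin to grow. The deep sub-clusters low in Gdf9 held 129, 58, 57 and 82 cells in the library order above, and the deep ones high in Gdf9 held 49, 21, 11 and 17 cells. Lig4 was at 28.0, 24.3, 21.9 and 33.3 UPM in the 4 libraries in Gdf9-high cells, against 8.32, 5.58, 9.95 and 8.26 in Gdf9-low cells. Polm was at 14.8, 11.7, 15.1 and 15.5 against 4.27, 3.61, 3.86 and 4.67 UPM. Its level in Gdf9-low cells was near its mean in fibroblast-like cells (4.06 UPM) and below that in surface epithelial-like cells (5.59 UPM). The ligase and the polymerase genes were thus higher in the Gdf9-high cells in each library, with no overlap. The Ku genes went the other way, Xrcc5 at 136, 145, 141 and 134 against 202, 231, 186 and 211 UPM. Xrcc6 was at 58.5, 68.0, 73.3 and 67.1 against 99.7, 104, 119 and 113 UPM. The deep Gdf9-high group joins sub-clusters with medians of 45406 and 319247 UMIs per cell. Over all libraries Lig4 was at 46.6 and 14.8 UPM in them, and Polm at 20.1 and 10.4 UPM. Sub-clusters were made from these same cells, with the members and listed genes left out, so the contrast is a description.

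**Figure D4:**
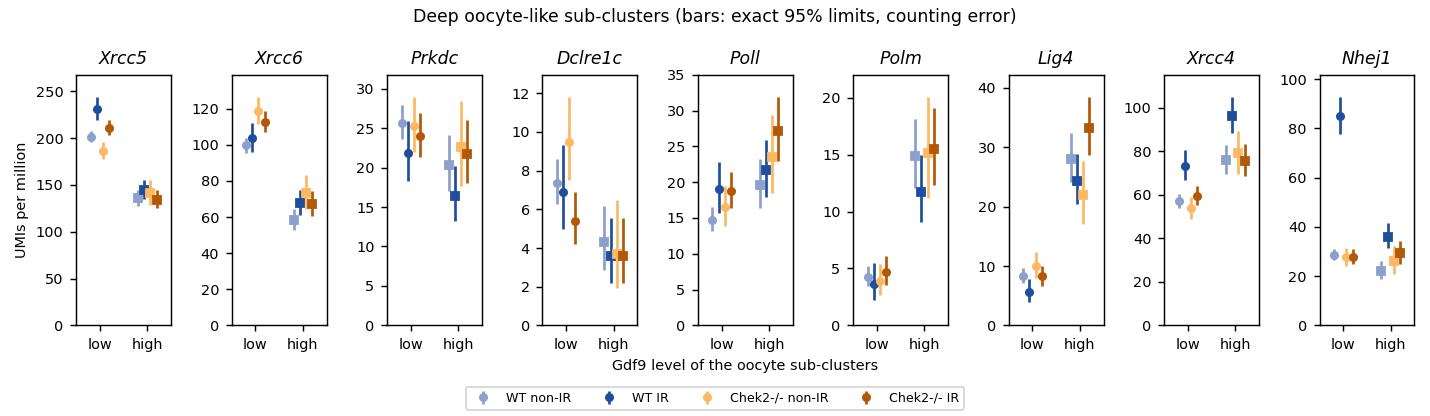
Levels in UPM (axis from 0) of the 9 genes in deep oocyte-like sub-clusters with low or high Gdf9, 1 point per library with exact 95% Poisson limits. Lig4 and Polm are higher and Xrcc5 and Xrcc6 lower in the Gdf9-high cells of all 4 libraries, and Nhej1 stands out at 84.9 UPM in the WT IR library among Gdf9-low cells.

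Between irradiated and non-irradiated oocyte-like cells, Nhej1 had the largest ratio of the 9 genes. It was at 27.2 UPM in WT nonIR, 59.2 in WT IR, 27.5 in Chek2-/- nonIR and 28.2 in Chek2-/- IR, so that 1 of the 4 libraries was high and the other 3 lay together. The ratio of irradiated to non-irradiated library was 2.18 in WT (exact 95% limits 1.97 to 2.41, from 784 and 781 UMIs) and 1.03 in Chek2-/- (0.893 to 1.19). These limits cover counting error only, and the difference between the genotypes was not tested. In the somatic classes with the most UMIs the WT ratio was 0.855 (0.766 to 0.953) in granulosa-like and 1.00 (0.860 to 1.17) in fibroblast-like cells. Counted per cell, Nhej1 was at 4.04 UMIs in WT nonIR and 4.85 in WT IR, since oocyte-like cells of the WT IR library carried fewer UMIs, 81942 against 148657 on average.

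The composition of the oocyte-like cells differed between the libraries. Barcodes under 20000 UMIs were 21.1%, 52.8%, 10.7% and 29.7% of them in the library order above, and without these barcodes the Nhej1 ratio was 2.16 (1.95 to 2.39) in WT and 1.04 (0.903 to 1.20) in Chek2-/-. Within deep Gdf9-low cells Nhej1 was at 28.6 and 84.9 UPM in the WT libraries, a ratio of 2.97 (2.64 to 3.34), and at 4.88 and 8.91 UMIs per cell. The Chek2-/- ratio in these cells was 1.01 (0.851 to 1.20). Of the 58 irradiated WT cells in this group, 50 fell in a sub-cluster that held no cell of another library. In deep Gdf9-high cells the WT ratio was 1.62 (1.31 to 2.03), and both groups thus had a higher level in the irradiated WT library. Depth differed there too, with a median of 42539 UMIs per cell in WT nonIR and 300500 in WT IR. The sub-clusters joined in the deep Gdf9-high group had unequal shares, with 33 and 16 cells in WT nonIR and 10 and 11 in WT IR. Nhej1 was at 22.3 and 32.3 UPM in them over all libraries. A further sub-cluster, with a median of 3370 UMIs, held 50 of its 52 cells from WT IR and is left unnamed, with the stromal gene Dcn at 305 UPM against 19.8 to 56.5 in the others. A sub-cluster of 1 library may be that library rather than a type, and the part of depth and of these barcodes in the Nhej1 ratio was not tested beyond the values given.

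The p53 targets, chosen with earlier results of these data known, were read in the same cells as a check. In WT oocyte-like cells Mdm2, the ligase that restrains p53, was at 79.5 UPM without and 840 with IR, a ratio of 10.6, and Ccng1, the gene of cyclin G1, had a ratio of 2.90. In Chek2-/- these ratios were 1.08 and 1.07. For Cdkn1a, without barcodes under 20000 UMIs, the ratio was 4.78 (4.45 to 5.14) in WT and 1.17 (1.05 to 1.31) in Chek2-/-. In deep Gdf9-low cells of Chek2-/- it was 1.23 (1.09 to 1.39). Many genes moved between the WT libraries in oocyte-like cells: of genes with at least 20 UMIs, 9.36% were at least 2-fold higher, a group that holds 1 of 9 members, Nhej1. At least 1.5-fold either way, 1 of 9 members in WT stood beside 31.0% of genes, and 1 of 9 in Chek2-/- beside 11.6%. The Chek2-/- gene was Dclre1c, at 7.83 and 4.89 UPM, a ratio of 0.624 (0.460 to 0.844) from 93 and 87 UMIs.

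The other members moved less in oocyte-like cells. Xrcc4, the ligase partner that Nhej1's product binds, was at 62.1 and 81.0 UPM in WT, a ratio of 1.3 (1.21 to 1.41), and at 61.1 and 64.5 in Chek2-/-, a ratio of 1.06 (0.962 to 1.16). Poll had a WT ratio of 1.22 (1.04 to 1.42) and Prkdc of 0.798 (0.689 to 0.922). Xrcc5 was at 186 and 182 UPM, a ratio of 0.979 (0.933 to 1.03), and Lig4 and Polm had WT ratios of 1.05 and 1.03 with limits on both sides of 1. These ratios pool oocyte groups with unequal levels, and the shares of the groups differed between the libraries. Within the deep groups the direction turned for all 3 genes. Xrcc5 had a WT ratio of 1.15 (1.08 to 1.22) in Gdf9-low and 1.07 (0.968 to 1.17) in Gdf9-high cells. Lig4 had ratios of 0.671 (0.451 to 0.972, from 183 and 34 UMIs) and 0.869 (0.691 to 1.09), and Polm of 0.846 (0.506 to 1.36) and 0.789 (0.567 to 1.09). The Gdf9-high ratios still join the sub-clusters given above, whose levels and shares were unequal. The Gdf9-low ratios likewise join sub-clusters with unequal shares. A sub-cluster there held 89 WT nonIR cells and 1 WT IR cell, and another held 0 and 50. For Xrcc4, Poll and Prkdc the ratio stayed on the same side of 1 in both deep groups. Prkdc was also lower in the irradiated WT library in granulosa-like (0.828, 0.743 to 0.921) and fibroblast-like cells (0.771, 0.651 to 0.913). Granulosa-like cells join clusters with unequal shares, a cluster holding 848 of 2479 cells in WT nonIR and 1362 of 2993 in WT IR. The part of these shares in the ratio was not tested. In Chek2-/- granulosa-like cells 5 of 9 members had limits that left out 1, all of them above 1, with Poll at 1.34 (1.16 to 1.53). Of 15467 genes with at least 20 UMIs in these cells, 17.8% had limits above 1.

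**Figure D5:**
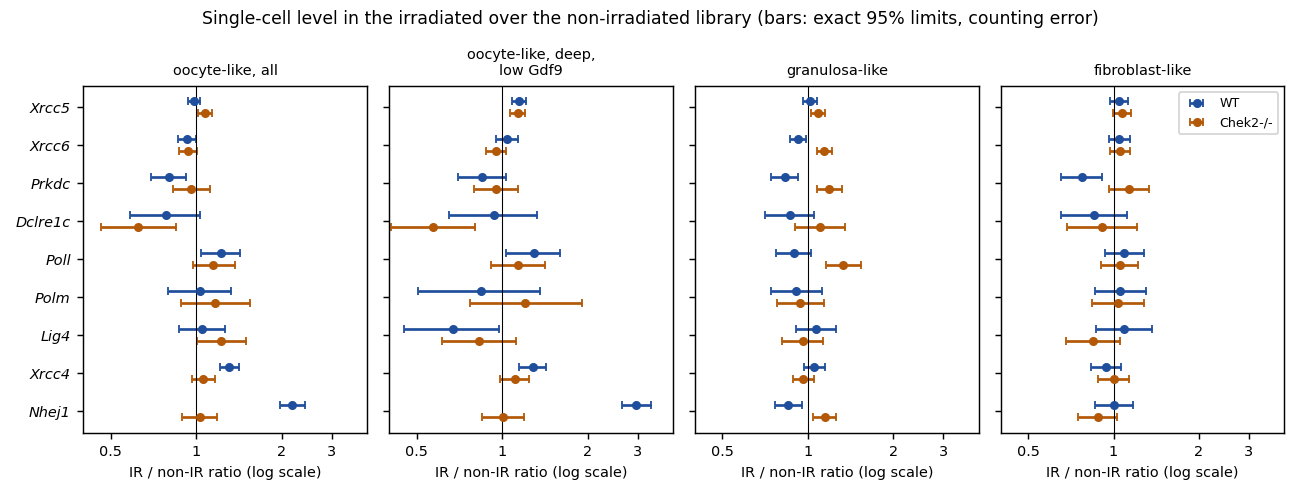
Ratio of the irradiated to the non-irradiated library (log axis) for each gene in 4 sets of cells, WT in blue and Chek2-/- in brown, with exact 95% limits for counting error. Nhej1 in WT oocyte-like cells stands alone at 2.18, and at 2.97 in the deep Gdf9-low cells, while its Chek2-/- ratios lie at 1.03 and 1.01.

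Xrcc6 can be followed from bulk into cells. Over all named cells it was at 39.2 UPM in WT nonIR, 33.4 in WT IR, 37.4 in Chek2-/- nonIR and 41.7 in Chek2-/- IR. With oocyte-like cells left out it was at 29.8, 29.4, 32.1 and 35.8 UPM, so the WT libraries lay closer together without these cells. Oocyte-like cells gave 35.7% of all Xrcc6 UMIs in WT nonIR and 18.5% in WT IR, where they gave 15.5% and 7.42% of all UMIs. Within oocyte-like cells the WT ratio of Xrcc6 was 0.925 (0.861 to 0.993), within their deep Gdf9-low part 1.04 (0.951 to 1.14), and within their deep Gdf9-high part 1.16 (1.01 to 1.34), so the ratio below 1 was seen in neither deep group. The Gdf9-high ratio joins sub-clusters with unequal shares, in which Xrcc6 was at 56.5 and 71.6 UPM over all libraries. The Gdf9-low ratio joins unequal shares too. A sub-cluster with Xrcc6 at 96.3 UPM held 89 WT nonIR cells and 1 WT IR cell, and another at 103 UPM held 0 and 50. Xrcc6 was at 122 and 120 UPM in the rest of that group, and the part of these shares in the ratios was not tested. Within granulosa-like cells the WT ratio was 0.923 (0.865 to 0.985). In Chek2-/- it was 0.930 (0.865 to 1.00) in oocyte-like and 1.14 (1.08 to 1.22) in granulosa-like cells. Whether the share of oocytes sets the bulk difference was not tested, because the cell yield of 1 library per condition also sets that share.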

How the data were processed

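For bulk libraries the authors trimmed reads (Trim Galore 0.6.5), quantified them with Salmon 1.3.0 and deposited estimated counts per gene, not scaled between libraries. The single-cell matrices that the authors deposited hold counts of UMIs per gene and barcode from Cell Ranger (mm10). Estimated counts were rounded, genes with a sum under 10 left out, and 26790 genes fitted in edgeR 4.0.16 (R 4.3.3) with TMM scaling, 1 coefficient per group, the quasi-likelihood test and Benjamini-Hochberg adjustment over all genes. The alternatives included DESeq2 1.42.0, limma-voom (limma 3.58.1), other size factors, filters and left-out libraries. Barcodes needed at least 1000 genes, at most 20% of UMIs from mitochondrial and at most 50% from ribosomal protein genes, and doublets called by Scrublet (4.02% to 5.47%, scanpy 1.11.5) were removed. Cells were clustered on 30 principal components of 2000 variable genes (Leiden, resolution 0.5). The members and the listed genes were left out before variable genes were chosen, here and for the oocyte sub-clusters. UMIs were summed per class and library. Limits are exact (95%) and cover counting error only. The members and lists were chosen with earlier results of these data known. Named genes were the 9 members, at most the 3 smallest adjusted p per list and comparison, Chek2, Cdkn1a, Mdm2, Ccng1 and Mcm4, and the 2 most alike genes per member. Cell markers and genes that overlap a member are named beside these; Gdf9 and Dcn were singled out after their values were seen. Symbols were found for all but 522 of 44674 bulk genes. Nothing says beyond the paired ovaries whether bulk samples of a group shared litters. Scripts that test many genes were checked on simulated data.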

Additional observations from a re-analysis of the deposited data

Results flagged for a closer look

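In 6 of 36 groups of 6 CPM values, 1 bulk library stood far from the other 5 by Dixon's test, where chance gives about 1 in 20. Xrcc6 in WT nonIR replicate 2 was at 52.6 CPM, against 61.0 to 62.6 CPM in the other libraries. Xrcc5 was at 46.2 CPM in Chek2-/- nonIR replicate 6, against 55.1 to 58.8 CPM, and at 62.6 CPM in WT IR replicate 4, against 49.8 to 54.4 CPM. Poll in Chek2-/- nonIR replicate 6 was at 10.4 CPM, against 12.9 to 14.2 CPM, and this library also had the lowest sum of oocyte markers. Lig4 in WT IR replicate 4 was at 14.7 CPM, against 18.1 CPM or more. This library also had the highest surface epithelial marker sum, 717 CPM, against 188 to 433 CPM in the other WT IR libraries. Xrcc4 in Chek2-/- IR replicate 3 was at 11.8 CPM, against 12.9 to 13.5 CPM.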

How the results depend on the processing

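Of 1521 refitted log2 fold changes of the members, 1408 kept their direction and their side of the threshold, 9 passed it and 6 lost it; 98 changed sign, none of them past the threshold and none larger than 0.0749. The cause of these changes was not tested. Requiring at least 2-fold as well left 0 members in either comparison where Xrcc6 was called, and 288, 1, 167, 211 and 639 genes in WT, Chek2-/-, the interaction and the genotypes without and with IR. DESeq2 called 14 genes in Chek2-/-, 1 member and 458 genes in the interaction, and 2 members and 2507 genes between genotypes without IR. With filterByExpr 1 member (Poll) passed there. Fits of only the groups compared called 0 members in WT, 1 gene in Chek2-/-, 785 genes between genotypes without IR and 2 members with IR, the second being Prkdc (adjusted p = 0.037). Without the 5 libraries that stood apart (chosen after seeing the data) 1, 0, 0, 0 and 1 members passed, as they did when Chek2-/- nonIR replicate 5 was kept and the other 4 were left out. Without all 5, 1 gene passed in Chek2-/- and 2573 genes between genotypes without IR. With 1 library left out, members past the threshold ranged from 0 to 1, 0 to 0, 0 to 1, 0 to 1 and 1 to 2, and all genes from 516 to 829, 2 to 5, 221 to 323, 573 to 1800 and 1808 to 3185, in the same order.

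Same-numbered replicates correlated at -0.047 to 0.40 between WT groups and at 0.058 to 0.66 between Chek2-/- groups, where 1 and 4 of 6 libraries correlated best with their own number, and at 0.022 to 0.12 between genotypes without IR, so the numbers were not taken as pairs. With the replicate block 1 member passed between genotypes without IR, Poll at -0.25 (adjusted p = 0.0294), and no other call on the members changed.

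Log2 fold changes that changed sign were near 0. Dclre1c in WT was at 0.0085 (DESeq2), 0.0046 (RLE), 0.0021 (upper quartile), 0.0049 (no filter), 0.0076 (filterByExpr) and 0.011 (only these groups). Between genotypes with IR, Lig4 was at -0.0095 (DESeq2), -0.00099 (limma-voom), -0.0078 (RLE), -0.0053 (no filter), -0.0089 (filterByExpr), -0.0021 (replicate block) and -0.010 (only these groups). Between genotypes without IR, Xrcc5 was at 0.0094 (upper quartile), 0.0013 (no filter), 0.00073 (filterByExpr), 0.047 (4 libraries left out) and 0.034 (5 left out), Nhej1 at 0.00033 (upper quartile), 0.013 (4 libraries left out) and 0.0091 (5 left out), and Xrcc6 at -0.0027 (only these groups). In Chek2-/- without the 4 libraries, Xrcc4 was at -0.0012, Xrcc5 at -0.0052 and Nhej1 at 0.024, and without the 5, Xrcc5 was at -0.00048 and Nhej1 at 0.019. With 1 library left out, the WT ranges were -0.069 to 0.0081 for Xrcc5, -0.078 to 0.0011 for Lig4, -0.062 to 0.057 for Dclre1c and -0.054 to 0.022 for Poll. In Chek2-/- they were -0.015 to 0.046 for Xrcc4, -0.035 to 0.030 for Xrcc5, -0.055 to 0.075 for Nhej1 and -0.029 to 0.047 for Polm. For the interaction they were -0.013 to 0.078 for Xrcc5 and -0.11 to 0.0026 for Lig4. Between genotypes without IR they were -0.046 to 0.042 for Xrcc5, -0.026 to 0.025 for Xrcc6, -0.0084 to 0.085 for Lig4 and -0.055 to 0.040 for Nhej1, and with IR -0.0018 to 0.075 for Xrcc5 and -0.058 to 0.026 for Lig4.

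In single cells 33 of 405 class levels moved by more than 1 SD over libraries under the alternatives, 22 of them when mitochondrial UMIs were left out of the total, and 97 of 99 shares of cells moved when cells were thinned. With 1 library per condition, no difference between single-cell libraries can be set against replicate spread.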
